A study of Caenorhabditis elegans with 2 samples.

Results

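The genes described here encode the DNA replication machinery of the nematode Caenorhabditis elegans: the proteins that mark origins, unwind the duplex, copy it, join the new strands and supply nucleotides. They were chosen by their WormBase symbols, with no measured value in the rule, and 40 of the 46748 gene identifiers in the deposited count table matched. The matches were 7 mcm genes named by number and mcm-3AP, 5 orc, 3 psf, 4 rfc, 3 rpa, 2 rnr and 3 pole genes, and 12 genes matched by their full name. The gene mcm-3AP was caught only because its symbol begins like those of the helicase genes. Its human relative is known for messenger RNA export, so it was kept in the counts but set apart from the replication roles.

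RNA was sequenced from whole wild-type hermaphrodites, aged 5 days, kept on heat-inactivated Escherichia coli OP50, the usual laboratory food of this worm. The strain is given as wild type (unspecified), and the titles carry the name N2. There was 1 group with 2 libraries and no other genotype, food or age, so the design holds no contrast between conditions. The labels do not say whether the libraries came from separate cultures, and the spread between them may therefore be technical. The replicate numbers follow the accession order and are names only.

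In eukaryotes the origin recognition complex (ORC), CDC6 and CDT1 load the MCM2-7 helicase onto DNA, and geminin restrains CDT1 so that each origin is licensed once per cycle. The loaded helicase is switched on by joining CDC45 and the GINS complex, primase and polymerase alpha start each strand, and a sliding clamp (PCNA) placed by replication factor C holds the main polymerases on the template. In an adult hermaphrodite the somatic cells no longer divide. Dividing germ cells at the distal end of the gonad and the embryos held in the uterus are among the sites known for ongoing replication. Oocytes also store replication transcripts for the embryo.

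Levels are given as CPM per kb: the count scaled to the total of the library (CPM), divided by the length in kilobases of the merged annotated exons of the gene. Replicate 1 held 28164638 counts and replicate 2 held 31271070 counts. Values are means ± SD of the 2 libraries (n = 2) unless each library is given. In whole animals, fewer cells of a type and less RNA per cell cannot be told apart. Marker genes of the tissues that whole worms hold were looked up first. All 10 germline genes were detected, with gld-1 at 460.5 ± 0.310 CPM per kb. They ran from fbf-2 at 10.3 ± 0.455 and fbf-1 at 19.9 ± 1.33 to mex-5 at 681 ± 43.8 CPM per kb. Also detected were 2 targets of the germline stem cell signal, sygl-1 at 206 ± 0.940 CPM per kb and lst-1 at 146 ± 5.82 CPM per kb. Of 8 sperm genes 4 were detected and only spe-44 exceeded 0.5 CPM per kb, at 13.5 ± 0.112 CPM per kb. Of 8 early zygotic embryonic genes 5 were detected, the highest being pes-10 at 3.49 ± 0.592 CPM per kb, while med-1 had no count in either library. All 5 matched intestine, 5 muscle, 6 neuron and 4 hypodermis markers were detected. The muscle markers ran from myo-3 at 9.51 ± 1.11 to act-4 at 288 ± 6.96 CPM per kb, with the muscle myosin gene unc-54 at 95.7 ± 8.36 CPM per kb. The intestine markers ran from the gut regulator elt-2 at 4.12 ± 0.365 to act-5 at 71.5 ± 4.91 CPM per kb.

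All 40 genes were detected, that is, had at least 10 counts in both libraries, against a background of 62.5% of protein-coding genes and 27.3% of all identifiers. Together they took 1.165% of the counts of replicate 1 (95% Wilson interval 1.161% to 1.169%) and 1.161% of those of replicate 2 (1.157% to 1.165%). These and all other intervals cover counting error only. The median level of the 40 genes was 94.8 ± 1.94 CPM per kb, and the median over the 12268 detected protein-coding genes was 11.5 ± 0.202 CPM per kb. Of the 40 genes, 39 lay above that median and 20 lay above the 90th percentile, 97.6 CPM per kb. The exception below the median was rpa-4. Levels ran from rpa-4 at 1.59 ± 0.212 CPM per kb to pcn-1, the clamp gene, at 734 ± 23.5 CPM per kb. In all, 10 genes exceeded 200 CPM per kb, 20 lay between 50 and 200, 9 between 10 and 50, and 1 below 10.

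**Figure D1:**
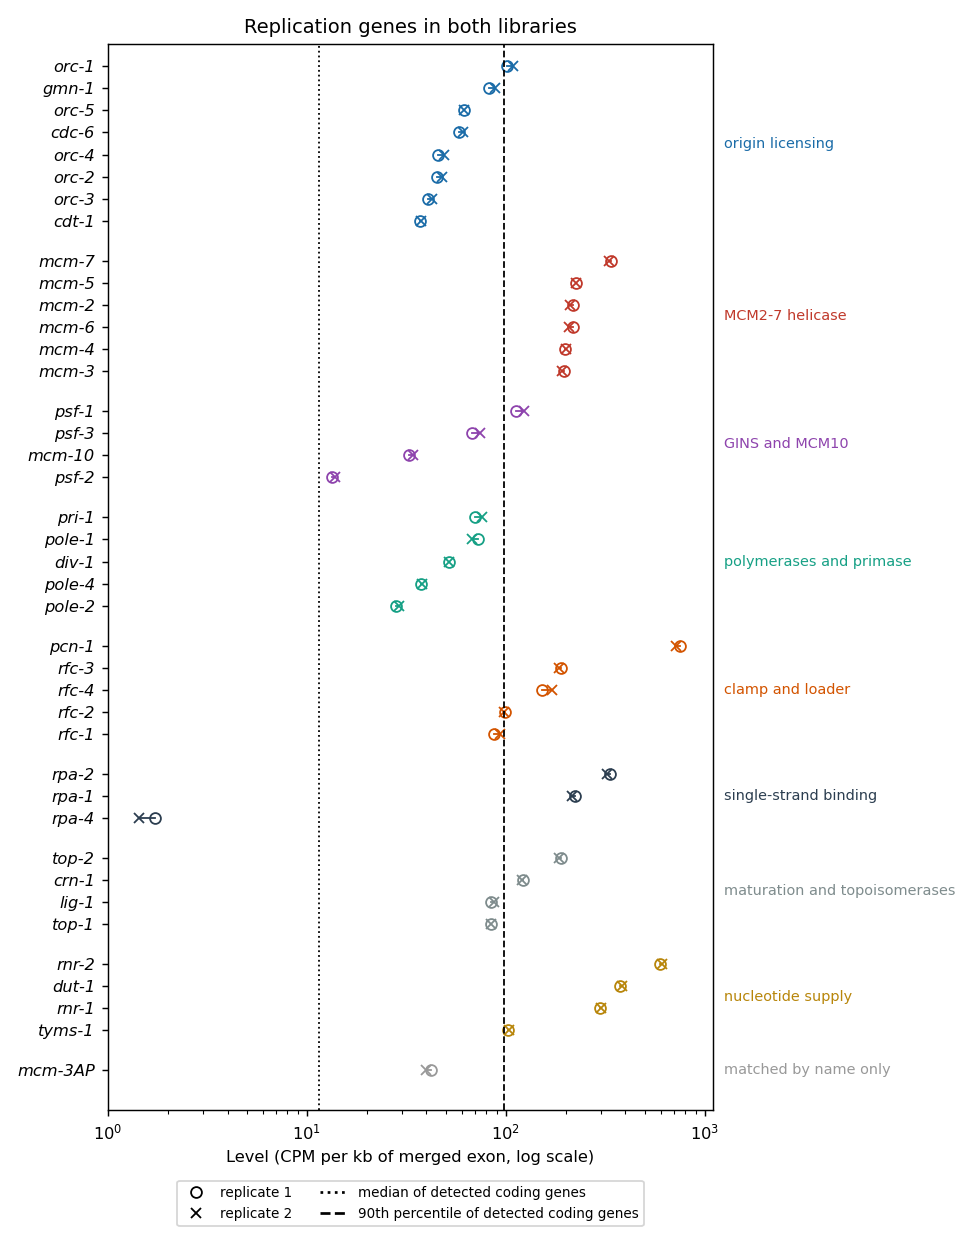
Level of each of the 40 genes (CPM per kb of merged exon, log axis) in replicate 1 (circle) and replicate 2 (cross), grouped by role; the dotted line is the median (11.5) and the dashed line the 90th percentile (97.6) of detected protein-coding genes. The MCM2-7 helicase genes lie close together, the clamp gene pcn-1 and the ribonucleotide reductase gene rnr-2 are highest, and psf-2 and rpa-4 stand below the other members of their groups.

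The genes that license origins were expressed at moderate levels, below the helicase they load when annotated lengths are used. The 8 genes had a median of 53.4 ± 2.28 CPM per kb, which is the percentile 79.1 of detected protein-coding genes. The large ORC subunit gene orc-1 (WBGene00012650, chromosome III, 10643129 to 10646058, plus strand) was highest, with 5770 counts in replicate 1 and 6830 counts in replicate 2, or 102 and 108 CPM per kb. The other ORC genes lay lower, orc-5 at 61.9 ± 0.0705, orc-4 at 47.3 ± 2.59, orc-2 at 46.4 ± 2.05 and orc-3 at 41.6 ± 1.07 CPM per kb. The level of orc-1 was 1.70 ± 0.0787 times that of orc-5 and 2.22 ± 0.0210 times that of orc-4, while orc-2 to orc-5 spanned 1.49-fold.

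The loading factor gene cdc-6 had 59.6 ± 1.97 CPM per kb. Its partner cdt-1 (WBGene00000413, chromosome I, 3223160 to 3228104, minus strand) was the lowest of the licensing genes, with 2773 and 3112 counts in replicates 1 and 2, or 37.1 and 37.5 CPM per kb. Both libraries therefore placed cdc-6 above cdt-1, by 1.60 ± 0.0407 times. The geminin gene gmn-1, whose product binds and restrains CDT1, had 2958 and 3539 counts, or 82.1 and 88.4 CPM per kb with the current annotation, which gives it 1280 bp of exon. The deposited counts and RPKM imply that the submitters used 543 bp for gmn-1, and with that length the level was 201 ± 10.6 CPM per kb. Either way gmn-1 lay above cdt-1, but by 2.28 ± 0.103 times with the annotated lengths only. Whether its place in the order is above or below orc-1 depends on the length used.

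The MCM2-7 helicase genes were abundant and close to each other in level. All 6 lay above the 90th percentile, with a median of 214 ± 5.43 CPM per kb. The highest, mcm-7 (WBGene00003159, chromosome V, 4347166 to 4349768, plus strand), had 23347 and 25422 counts in replicates 1 and 2, or 338 and 332 CPM per kb. The lowest, mcm-3 (WBGene00003155, chromosome V, 15056719 to 15059599, minus strand), had 14833 and 16053 counts, or 196 and 191 CPM per kb. Between them lay mcm-5 at 226 ± 0.582, mcm-2 at 214 ± 4.24, mcm-6 at 213 ± 6.61 and mcm-4 at 199.6 ± 0.688 CPM per kb. Without mcm-7 the other 5 genes spanned 1.17-fold, and the values of mcm-2 and mcm-6 overlapped between libraries, so their order is not resolved. In both libraries mcm-7 was highest. Its level was 1.48 ± 0.0166 times that of mcm-5 and 1.73 ± 0.00747 times that of mcm-3. The helicase ring holds each of these 6 subunits once, and any link of this to the transcript levels was not tested.

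Genes for switching on the loaded helicase were much less even. Among the GINS genes, psf-1 (WBGene00011275, chromosome II, 9968673 to 9969630, plus strand) had 2122 and 2582 counts in replicates 1 and 2, or 113 and 124 CPM per kb. The gene psf-3 had 71.0 ± 4.76 CPM per kb. The lowest, psf-2 (WBGene00009287, chromosome I, 15053010 to 15053672, plus strand), had 231 and 266 counts, or 13.4 CPM per kb (Poisson interval 11.7 to 15.2) and 13.9 CPM per kb (12.3 to 15.7). In both libraries psf-1 exceeded psf-2, by 8.65 ± 0.337 times on average, and psf-3 exceeded psf-2 by 5.20 ± 0.214 times. The remaining GINS gene, sld-5, which the name rule did not cover, had 22.1 ± 1.74 CPM per kb, 1.62 ± 0.0861 times the level of psf-2. So psf-1 and psf-3 formed the upper pair and sld-5 and psf-2 the lower pair of this complex. An opposite-strand gene, F31C3.6, shares 65 bp (10.6%) of the exon of psf-2 and had 83 and 110 counts of its own. Some reads at psf-2 may therefore not be its own, or reads of the shared stretch may have gone uncounted. The counting options are not known, so the direction of any error is not known either. The initiation factor gene mcm-10 (WBGene00012935, chromosome III, 11317570 to 11326664, plus strand) had 1998 and 2326 counts, or 32.6 and 34.2 CPM per kb, and mcm-2 was at 6.43 ± 0.342 times its level.

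The 5 polymerase and primase genes that the name rule covers lay at the lower end of the replication genes, and none of the 5 passed the 90th percentile. They had a median of 51.9 ± 0.0985 CPM per kb. The rule also covered symbols beginning with pold, for polymerase delta, but none matched, so that polymerase is not in this group. The primase catalytic subunit gene pri-1 (WBGene00004180, chromosome III, 9612254 to 9614281, minus strand) had 2630 and 3141 counts, or 70.3 and 75.6 CPM per kb in replicates 1 and 2. The gene for the catalytic subunit of polymerase epsilon, pole-1 (WBGene00009368, chromosome I, 15005603 to 15013904, minus strand), had 13359 and 13850 counts, or 72.3 and 67.5 CPM per kb. The libraries disagreed on whether pri-1 or pole-1 was higher, so these 2 genes cannot be ordered. The accessory subunit genes of polymerase epsilon lay below its catalytic subunit gene. The small subunit gene pole-4 (WBGene00013150, chromosome II) had 649 and 731 counts, or 37.3 and 37.9 CPM per kb. The gene pole-2 (WBGene00017237, chromosome IV, 8682240 to 8686610, minus strand) was lowest, with 1495 and 1734 counts, or 28.0 and 29.2 CPM per kb. The ratio of pole-1 to pole-2 was 2.45 ± 0.194, and that of pole-1 to pole-4 was 1.86 ± 0.109. The polymerase alpha B subunit gene div-1 had 51.9 ± 0.0985 CPM per kb, and as the middle gene it sets the group median. The deposited files imply 2255 bp for div-1 where the annotation has 1902 bp. With the implied length its level was 43.8 ± 0.0831 CPM per kb, so the group median depends on the length used.

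The sliding clamp gene was the most abundant of all replication genes per length. The PCNA gene pcn-1 (WBGene00003955, chromosome IV, 4047937 to 4049448, minus strand) had 20946 and 22226 counts, or 750 CPM per kb in replicate 1 (Poisson interval 740 to 761) and 717 CPM per kb in replicate 2 (708 to 727). That is 63.8 times the median of detected protein-coding genes and the percentile 98.8. The replication factor C genes, whose products open the clamp and close it around DNA, lay well below. They were led by rfc-3 at 188 ± 2.03 CPM per kb, followed by rfc-4 at 161 ± 12.6 and rfc-2 at 98.9 ± 0.447 CPM per kb. The large subunit gene rfc-1 (WBGene00004337, chromosome V, 14642667 to 14645979, minus strand) was lowest, with 7053 and 8378 counts, or 87.7 and 93.9 CPM per kb. In both libraries pcn-1 exceeded every rfc gene, by 3.91 ± 0.0829 times for rfc-3 and by 8.10 ± 0.645 times for rfc-1. PCNA works as a ring of identical subunits, and each loader holds its different subunits once. Any link between subunit number and transcript level was not tested.

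Of the single-strand binding genes, a pair was abundant and the other was barely present. Replication protein A coats unwound DNA, and rpa-2 (WBGene00019767, chromosome I, 4770292 to 4771358, plus strand) had 9138 and 9785 counts, or 334 and 322 CPM per kb. The large subunit gene rpa-1 (chromosome II) had 220.0 ± 5.86 CPM per kb. The ratio of rpa-2 to rpa-1 was 1.49 ± 0.00154. This SD comes from 2 values and lies below counting error, so it does not measure how steady the ratio is. The Poisson interval of rpa-2 was 327 to 341 CPM per kb in replicate 1 and 316 to 329 CPM per kb in replicate 2. In contrast, rpa-4 (WBGene00019079, chromosome I, 5509467 to 5511705, minus strand) had 86 and 79 counts, or 1.74 CPM per kb (Poisson interval 1.39 to 2.14) and 1.44 CPM per kb (1.14 to 1.79). With annotated lengths the level of rpa-2 was 208 ± 22.6 times that of rpa-4. The deposited files imply 1055 bp for rpa-4 where the annotation now has 1759 bp over 9 transcripts, and with the shorter length its level was 2.64 ± 0.353 CPM per kb. With the implied lengths of both genes rpa-2 was at 118 ± 12.7 times the level of rpa-4. It stayed the lowest of the 40 genes with either length.

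The 4 genes for finishing the lagging strand and for relieving supercoils had a median of 104 ± 0.452 CPM per kb. Of these, 2 lay above the 90th percentile. The flap endonuclease gene crn-1, related to FEN1, had 121 ± 1.52 CPM per kb and the DNA ligase gene lig-1 had 86.1 ± 2.53 CPM per kb. Their products act in turn on Okazaki fragments, and crn-1 exceeded lig-1 by 1.41 ± 0.0591 times. The topoisomerase II gene top-2 (WBGene00010785, chromosome II, 11875148 to 11880588, plus strand) had the most counts of all 40 genes, 26086 and 28113 in replicates 1 and 2. Divided by its long exons this came to 191 and 185 CPM per kb. The topoisomerase I gene top-1 (WBGene00006595, chromosome I, 13292506 to 13297558, plus strand) had 7685 and 8507 counts, or 84.4 and 84.2 CPM per kb. The ratio of top-2 to top-1 was 2.23 ± 0.0422.

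Genes for deoxynucleotide supply were the most abundant role group, with a median of 340 ± 5.58 CPM per kb, and all 4 lay above the 90th percentile. The small subunit gene of ribonucleotide reductase, rnr-2 (WBGene00004392, chromosome III, 4093308 to 4094921, minus strand), had 23293 and 26541 counts, or 597 and 612 CPM per kb. The large subunit gene rnr-1 (chromosome III) had 299 ± 3.67 CPM per kb. The enzyme joins both subunits to reduce ribonucleotides, and rnr-2 exceeded rnr-1 by 2.02 ± 0.0122 times. The dUTPase gene dut-1 (WBGene00010609, chromosome I, 9585417 to 9587203, plus strand), whose product keeps uracil out of DNA, had 16360 and 18678 counts, or 375 and 386 CPM per kb. The thymidylate synthase gene tyms-1 (WBGene00022455, chromosome I, 5138250 to 5139382, plus strand) was the lowest of the group, with 2972 and 3376 counts, or 102 and 105 CPM per kb. The level of dut-1 was 3.68 ± 0.0131 times that of tyms-1. The name match mcm-3AP had 40.9 ± 1.48 CPM per kb.

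Ordered by level, the 40 genes formed 39 neighbouring pairs, and in 14 of these the values of the libraries overlapped, so those neighbours do not differ beyond their spread. Within each library taken alone, 31 pairs kept the same order, 6 of them among the 14, and 8 pairs were in opposite order in the libraries. By group median, nucleotide supply was highest at 340 ± 5.58 CPM per kb. Single-strand binding (224 and 216 in replicates 1 and 2) and MCM2-7 (218 and 210) followed, and their ranges overlapped, so their order is not resolved. The single-strand binding median is the level of rpa-1, 1 of 3 genes. The clamp and its loader came next at 161 ± 12.6, then maturation and topoisomerases at 104 ± 0.452 CPM per kb. With annotated lengths, licensing, GINS with MCM10, and polymerases lay between 51.9 and 53.4 CPM per kb.

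Further genes of replication, listed from textbook roles, were also present throughout, at lower levels. Of 32 symbols 30 matched the name table, cdc-45 and sld-3 being the exceptions that were not analysed here, and all 30 were detected with a median of 52.7 ± 0.255 CPM per kb. The highest were cdc-48.1 at 431 ± 9.34 and cdc-48.2 at 206 ± 0.824 CPM per kb, which encode the segregase that removes the helicase at the end of replication and acts widely elsewhere. The lowest were cdk-2, a cyclin-dependent kinase gene, at 19.5 ± 0.868 and npl-4.2, a cofactor gene of the segregase, at 19.98 ± 0.145 CPM per kb. The partners of the listed polymerase genes lay near them: the polymerase alpha catalytic subunit gene pola-1 had 70.3 ± 1.78 CPM per kb, 1.35 ± 0.0316 times div-1, and the primase large subunit gene pri-2 had 112 ± 1.29 CPM per kb, 1.54 ± 0.0970 times pri-1. None of the 30 genes passed the 2-fold comparison of libraries described below (background 0.827%).

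Genes listed for replication-coupled chromatin assembly had a median of 96.7 ± 0.584 CPM per kb over 6 genes (rcaf-1 of the list was not matched). Of the 6, 3 exceeded the 90th percentile. The histone chaperone gene spt-16 was highest at 149.9 ± 0.595 CPM per kb, followed by the chaperone gene unc-85 at 146 ± 5.65 CPM per kb, and chaf-1 (61.1 ± 1.88 CPM per kb) and asfl-1 (85.6 ± 1.84 CPM per kb) were lowest. Replication stress checkpoint and translesion genes were lower as a list, with a median of 26.3 ± 0.515 CPM per kb over 21 genes and none above the 90th percentile. The checkpoint kinase gene chk-1 led them at 87.5 ± 5.45 CPM per kb, ahead of the translesion polymerase gene polh-1 at 51.7 ± 3.29 CPM per kb, and the helicase gene helq-1 (8.17 ± 0.155) and the checkpoint clamp gene hpr-9 (9.97 ± 0.127 CPM per kb) were lowest.

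Set beside other germline and cell division genes, the 40 replication genes had a median of 94.8 CPM per kb, against 35.3 ± 0.00212 CPM per kb for 24 meiotic genes and 90.3 ± 0.793 CPM per kb for 30 mitotic genes. Of these, 20 of 40 replication genes, 1 of 24 meiotic genes and 14 of 30 mitotic genes lay above the 90th percentile. The meiotic genes ran from the crossover gene him-14 at 14.3 ± 0.446 and msh-5 at 19 ± 0.0896 to the axis genes him-3 at 96.3 ± 3.0 and htp-1 at 98.3 ± 0.304 CPM per kb. The mitotic genes ran from gip-1 at 27.0 ± 0.547 and sas-4 at 31.5 ± 0.161, both centrosomal, to the cyclin B genes cyb-1 at 370 ± 13.7 and cyb-3 at 894 ± 7.07 CPM per kb. These are descriptions of lists chosen by role, and no test was made between them.

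**Figure D2:**
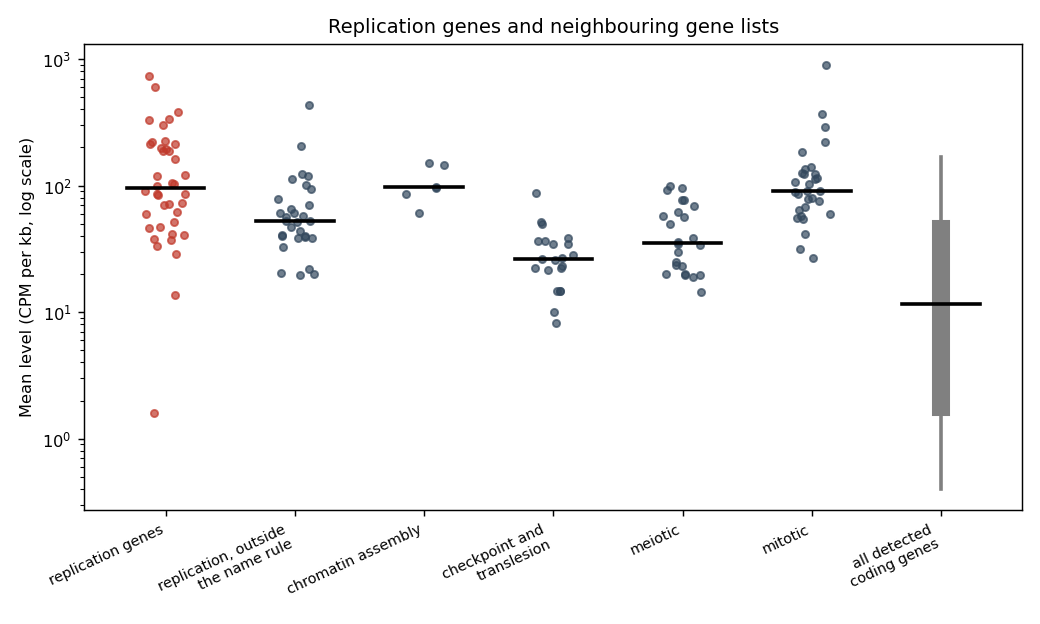
Mean level per gene (CPM per kb, log axis) of the 40 replication genes and of 5 other lists, with a bar at each median; for all detected protein-coding genes the thick line spans the middle 50% and the thin line the middle 90%. The replication and mitotic lists have medians of 94.8 and 90.3, above the meiotic (35.3) and checkpoint (26.3) lists.

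Position in the genome was described because the name rule did not use it. None of the 40 genes lay on the X chromosome, which held 14.5% of detected protein-coding genes. This was not particular to them. The lists of further replication, chromatin assembly, checkpoint, meiotic and mitotic genes, and the germline markers, also held no gene on X. Chromosomes I and III held 12 genes each (30%, against 16.5% and 16.5% of detected protein-coding genes), chromosomes II and IV held 6 each, and chromosome V held 4 (10%, against 18.9%). The genes were somewhat longer than the typical detected gene, with a median merged exon length of 1828 bp against 1447 bp, and had the same median of 6 exons. A single annotated transcript was listed for 29 of them (72.5%, against 60.6%).

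**Figure D3:**
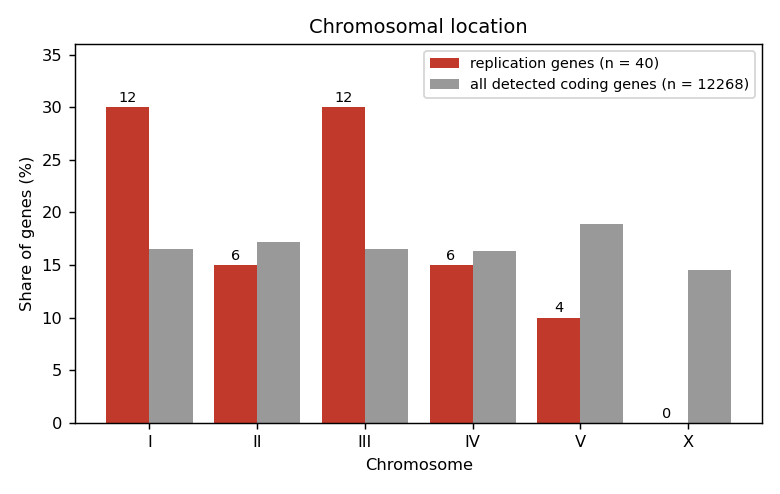
Share of genes on each chromosome (%), for the 40 replication genes (red, with the number of genes above each bar) and for the 12268 detected protein-coding genes (grey). The X chromosome has no replication gene and 14.5% of detected genes.

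Many genes of this worm are transcribed from operons, in which neighbours on a strand lie close together. A coding neighbour on the same strand within 500 bp was annotated for 19 of the 40 genes (47.5%), against 39.3% of detected protein-coding genes. The closest pair within the set was orc-1 and orc-4, separated by 111 bp on chromosome III, yet at 105 ± 4.75 and 47.3 ± 2.59 CPM per kb. The gene orc-2 begins 134 bp after copz-1, and pole-2 begins 145 bp after snrp-3. The levels of these upstream neighbours were 104 CPM per kb for copz-1 and 113 CPM per kb for snrp-3, above those of both replication genes. In the other direction pri-1, at 73.0 ± 3.76 CPM per kb, ends 56 bp before bbs-4, which had 0.712 CPM per kb. The gene cdc-6, at 59.6 ± 1.97 CPM per kb, ends 102 bp before C43E11.9, which had 48.0 CPM per kb. These pairs, with the shortest gaps, were picked out after their values were seen. The annotation used here does not mark operons.

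The libraries differed little in the replication genes, about as little as in other genes with many counts. The median absolute log2 ratio of replicate 2 over replicate 1 was 0.0515 for the 40 genes. It was 0.0516 for protein-coding genes with at least 1000 counts in both libraries and 0.0980 for all detected protein-coding genes. The levels of the 40 genes had a median coefficient of variation of 2.58%, from 0.114% for orc-5 to 13.4% for rpa-4, and 39 of 40 lay under 10%. From 2 values such a coefficient can fall below counting error. The Poisson interval of orc-5 in replicate 1 was 59.4 to 64.6 CPM per kb. No member passed an adjusted p under 0.05 with at least a 2-fold difference between the libraries (two-sided exact binomial test on counts with TMM library sizes, Benjamini-Hochberg adjusted over 14397 genes), against a background of 0.827% of all genes tested. At an unadjusted p under 0.05 with no fold, 21 of 40 passed, against 21.2% of all genes. At an adjusted p under 0.05 with no fold, 12 of 40 passed (30%), against 11.6% of all genes. The share rises with depth: of genes with at least 1000 counts in both libraries 23.6% passed, and of the 37 replication genes at that depth 12 (32.4%) did. The test takes in no variation beyond counting, and both libraries belong to 1 group, so a pass says nothing about a condition. Over all genes tested the libraries differed by more than counting noise (chi-square per degree of freedom 8.82). Ribosomal RNA took 1.62% of counts in replicate 2 and 2.45% in replicate 1, and the hypodermis markers bli-1 and rol-6 passed the 2-fold call, lower in replicate 2. The part of these in the small differences below was not tested.

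**Figure D4:**
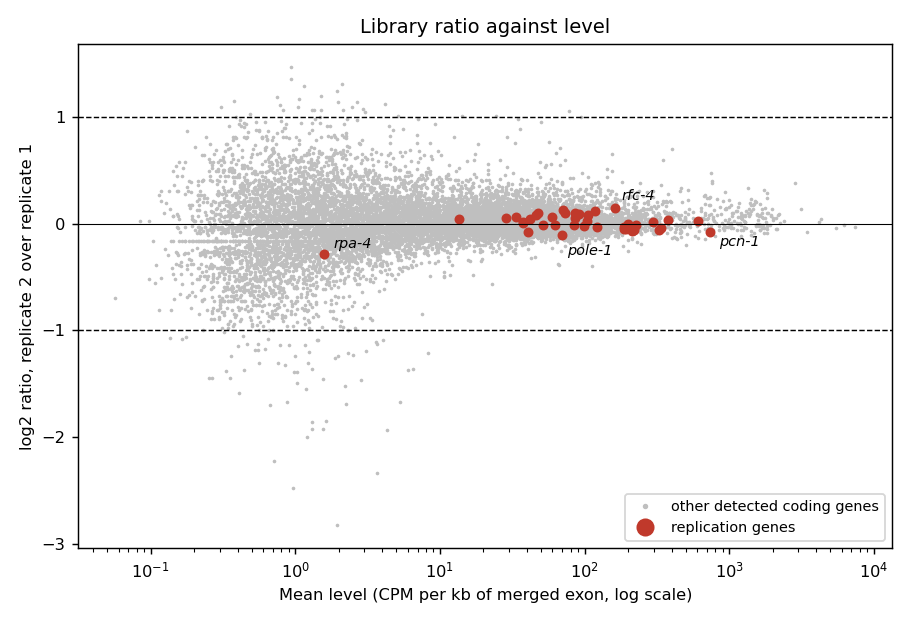
Log2 ratio of replicate 2 over replicate 1 against mean level (CPM per kb, log axis) for detected protein-coding genes (grey) and the 40 replication genes (red); dashed lines mark a 2-fold difference. All replication genes lie inside the dashed lines, the farthest from 0 being rpa-4, which has the fewest counts.

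The sizes of these differences were small. Among the 12 genes, rfc-4 was the farthest above 0, with a log2 ratio of replicate 2 over replicate 1 of 0.15 (interval 0.10 to 0.21, exact binomial test, adjusted p = 2.28e-06), and pole-1 was the farthest below, at -0.11 (-0.14 to -0.07, adjusted p = 6.20e-08 in the same exact test). The others were psf-1 (0.12), gmn-1 (0.10), rfc-1 (0.09) and orc-1 (0.08) above 0, and pcn-1 (-0.07), mcm-6 (-0.07), rpa-1 (-0.06), rpa-2 (-0.06), top-2 (-0.05) and mcm-2 (-0.05) below it. So 5 of 40 were higher in replicate 2, against 6.62% of all genes tested, and 7 of 40 were lower, against 4.95%. These background shares take in genes of every depth, whereas all 12 genes had at least 1000 counts in both libraries. Shares by direction at that depth were not computed. The split was 6 higher and 5 lower with library totals and 4 higher and 9 lower with DESeq2 size factors, so the balance of these small ratios depends on the scaling. With TMM kept and no filter on low counts, where p-values are adjusted over 19855 genes, it was 4 higher and 6 lower. The lowest gene, rpa-4, had a log2 ratio of -0.28 with an interval of -0.74 to 0.18 and did not pass.

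By role, the direction of these ratios was counted for every group, with no test. Over all detected protein-coding genes 53.0% had a log2 ratio above 0. With TMM scaling all 6 MCM2-7 genes were below 0 (median log2 ratio -0.04), mcm-4 being at 0 within 2 decimals and turning to 0.01 with library totals. The 3 single-strand binding genes were also below 0 (median -0.06). The 4 nucleotide supply genes were above 0 (median 0.03), as were the 4 GINS and MCM10 genes (median 0.09) and 7 of 8 licensing genes (median 0.07), orc-5 being the exception. The other groups were mixed: 2 of 5 clamp and loader genes, 3 of 5 polymerase and primase genes and 1 of 4 maturation and topoisomerase genes lay above 0, and mcm-3AP lay below. Apart from mcm-4, these counts were the same with library totals and with DESeq2 size factors. Exon length moved with the same ratio over all genes: protein-coding genes with at least 1000 counts had a median log2 ratio of 0.08 at up to 1000 bp of exon (837 genes), 0.01 from 1000 to 2000 bp (1860 genes), -0.01 from 2000 to 3000 bp (1007 genes) and -0.05 above 3000 bp (938 genes). Of the replication genes at that depth, 2 of 4 up to 1000 bp and 11 of 16 between 1000 and 2000 bp were higher in replicate 2, and 6 of 13 between 2000 and 3000 bp and 0 of 4 above 3000 bp were. The part of exon length in the differences between the libraries was not tested.

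**Figure D5:**
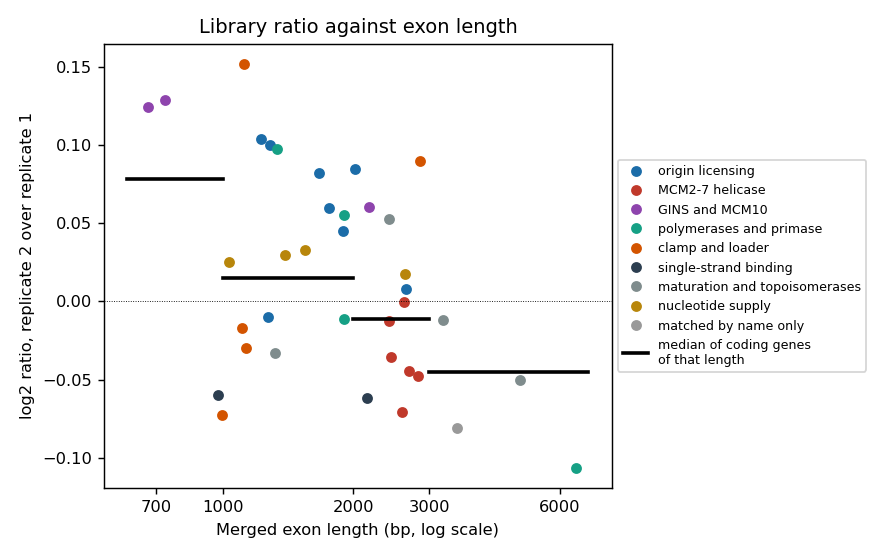
Log2 ratio of replicate 2 over replicate 1 against merged exon length (bp, log axis) for the 37 replication genes with at least 1000 counts in both libraries, coloured by role; black bars are medians of all protein-coding genes of that depth in 4 length classes, which step down from 0.08 to -0.05. The MCM2-7 genes lie at or below 0. Of the 4 genes with up to 1000 bp, psf-1 and psf-3 lie above 0 and pcn-1 and rpa-2 below it.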

How the data were processed

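RNA was sequenced in 2 libraries of 1 group. The authors deposited raw counts per gene and RPKM. Per the submitters' processing notes, the build was WBcel235 and the tools named are featureCounts 1.4.6-p4 and STAR 2.4.1d. For counting options, strand setting and annotation release the sources used here give nothing, and genes that overlap on opposite strands may share or lose reads. Such an overlap with a coding gene was annotated for 16 of the 40 members, over 10% of the exon in 1 of them, psf-2. Symbols came from the WormBase name table (43693 of 46748 identifiers matched) and exon lengths and coordinates from Ensembl release 115 of the same build (46449 matched).

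Counts were scaled to CPM with each library's own total. TMM factors came from edgeR 4.0.16 and DESeq2 1.42.0 gave the alternative size factors. The exact binomial test, in SciPy 1.17.1, was run on simulated counts with counting noise only, which is what the test assumes. That check therefore does not cover the wider spread between these libraries. A quasi-likelihood fit has no residual degrees of freedom with 1 group split into its 2 libraries, and log2 ratios had 0.5 added to each count. The RPKM deposited by the authors used a read total that changed with the row number in a cycle of 8 rows (the ratio of the totals ran from 0.787 to 1.27), so they served only as an alternative and to derive the gene lengths used upstream, which matched the annotation within 5% for 31 members. The floor of 3 counts was 0.107 CPM in replicate 1 and 0.0959 CPM in replicate 2.

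Every member was named; counts per library were given for the 5 highest and 5 lowest genes, the ends of each role group and any gene past the 2-fold call, and for other lists the highest and the lowest 2. The name rule uses symbols alone, but the members and lists were chosen with earlier results of these data known, and no list was tested.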

Additional observations from a re-analysis of the deposited data

How the results depend on the processing

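All 40 genes were detected with minimums of 5 and 20 counts and in each library alone. The median level, 94.8 CPM per kb, was 108 with RPKM as deposited, 99.1 with the lengths implied by the deposited files, 96.8 with totals that leave out ribosomal RNA, 98.9 without mcm-3AP (an alternative chosen after seeing the data) and 170 as CPM with no division by length. It stayed within the spread of the libraries with TMM, with the longest transcript and with no detection filter, and ran from 93.5 to 96.2 when either library was left out. With implied lengths the level moved by over 1.5 times for 2 of 40 genes, gmn-1 and rpa-4; the lengths themselves are the cause. The count of genes past the 2-fold call between libraries was 0 with library totals, DESeq2 size factors, no filter on low counts and a 1.5-fold limit (background 1.52%), and was 12 with the adjusted p alone, which drops the fold by construction. Near-identical gene copies were not examined. No paired analysis was possible because there is only 1 group.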
